A study of Homo sapiens with 12 samples.

Results

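The HOX cluster genes are the 39 rows of the count table whose symbol is HOX, a cluster letter from A to D and a number, out of 56634 gene symbols in all. They were measured by bulk RNA sequencing in HEK293 cells, a human embryonic kidney line transformed with adenovirus DNA, in 12 libraries. The 4 groups held 3 biological replicates each. TNF_SnxB cells were pre-treated for 1 hour with Senexin B (1 µM), which blocks the kinases CDK8 and CDK19 of the Mediator complex, and then given 10 ng/mL of the inflammatory cytokine TNFα for 2 hours. TNF cells received 0.1% DMSO for 1 hour and then TNFα at the same dose and time. SnxB cells received Senexin B at the same dose and no TNFα for 3 hours, and DMSO cells received 0.1% DMSO for 3 hours. All groups are the same line in culture, so nothing here speaks to HOX genes in a tissue.

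HOX proteins are transcription factors that bind DNA through a homeodomain, usually with PBX and MEIS partner proteins, and give cells their position along the body axes. Their genes lie in 4 clusters that arose by duplication of an ancestral cluster, and genes at matching positions, called paralogs, share a number. Low numbers lie at the 3′ end of a cluster and are used towards the head, and high numbers lie at the 5′ end and are used towards the tail, the limb ends and the urogenital tract. In the mouse, the paralogs numbered 11 are needed for the kidney to form. Polycomb proteins keep the clusters silent, and Trithorax proteins keep an active pattern active.

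HEK293 cells expressed nearly the whole HOX complement. In all 12 libraries, 33 of the 39 genes had at least 3 counts, the floor taken for detection. The same number, 33, passed the low-count filter of edgeR and was tested, among 14822 genes tested. By group, 33 members reached 3 counts in every TNF_SnxB library, 34 in every TNF library, 35 in every SnxB library and 33 in every DMSO library. The members under the filter were HOXB1, HOXC5, HOXC12, HOXD1, HOXD3 and HOXD12. HOXB1, which patterns the hindbrain, had 1 count over the 12 libraries together.

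Levels between genes were compared as CPM per kilobase of exon (CPM per kb), where CPM is the read count scaled to a common library size and exon length is the union of a gene's annotated exons. By this scale the highest member was HOXB9, a trunk and limb paralog, at 36.7 ± 2.08 CPM per kb (SD over 12 libraries). HOXA5, which acts in lung and neck development, followed at 32.8 ± 3.25 CPM per kb. HOXA10 and HOXA9, both known from leukaemia, stood at 26.9 ± 1.27 and 24.4 ± 1.70 CPM per kb. Over the 12 libraries HOXB9 ran from 33.4 to 40.0, HOXA5 from 27.2 to 37.4, HOXA10 from 24.7 to 29.0 and HOXA9 from 21.4 to 26.8 CPM per kb. These ranges overlap from each gene to the next but pool all libraries, so they do not compare 2 genes within a library. The order was not firm against the length used. Per kb of exon bases shared with no other gene, HOXA10 (36.5) and HOXA9 (33.4) stood above HOXA5 (32.8), with HOXB9 at 36.7. HOXA11, one of the kidney paralogs, followed at 18.4 ± 2.08 and HOXD11 at 17.5 ± 0.969 CPM per kb. HOXD13 and HOXA13, the digit and urogenital genes at the 5′ ends, stood at 15.2 ± 1.36 and 13.9 ± 1.22 CPM per kb.

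At the other end of the tested genes, HOXA2, a hindbrain gene, had 0.654 ± 0.141 CPM per kb, the trunk gene HOXA7 1.00 ± 0.223, and the neck genes HOXD4 and HOXB4 1.13 ± 0.244 and 1.22 ± 0.201. Under the filter, HOXD12 averaged 0.270 CPM per kb and HOXD1 0.233, and HOXC12, HOXC5 and HOXD3 were each below 0.1 CPM per kb. HOXD13 was thus well expressed while its immediate neighbour HOXD12 was near the floor, with 60 counts in all against 5753. HOXC13, a hair follicle gene, and HOXC12 made the same pair in the C cluster, with 3976 and 33 counts.

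**Figure D1:**
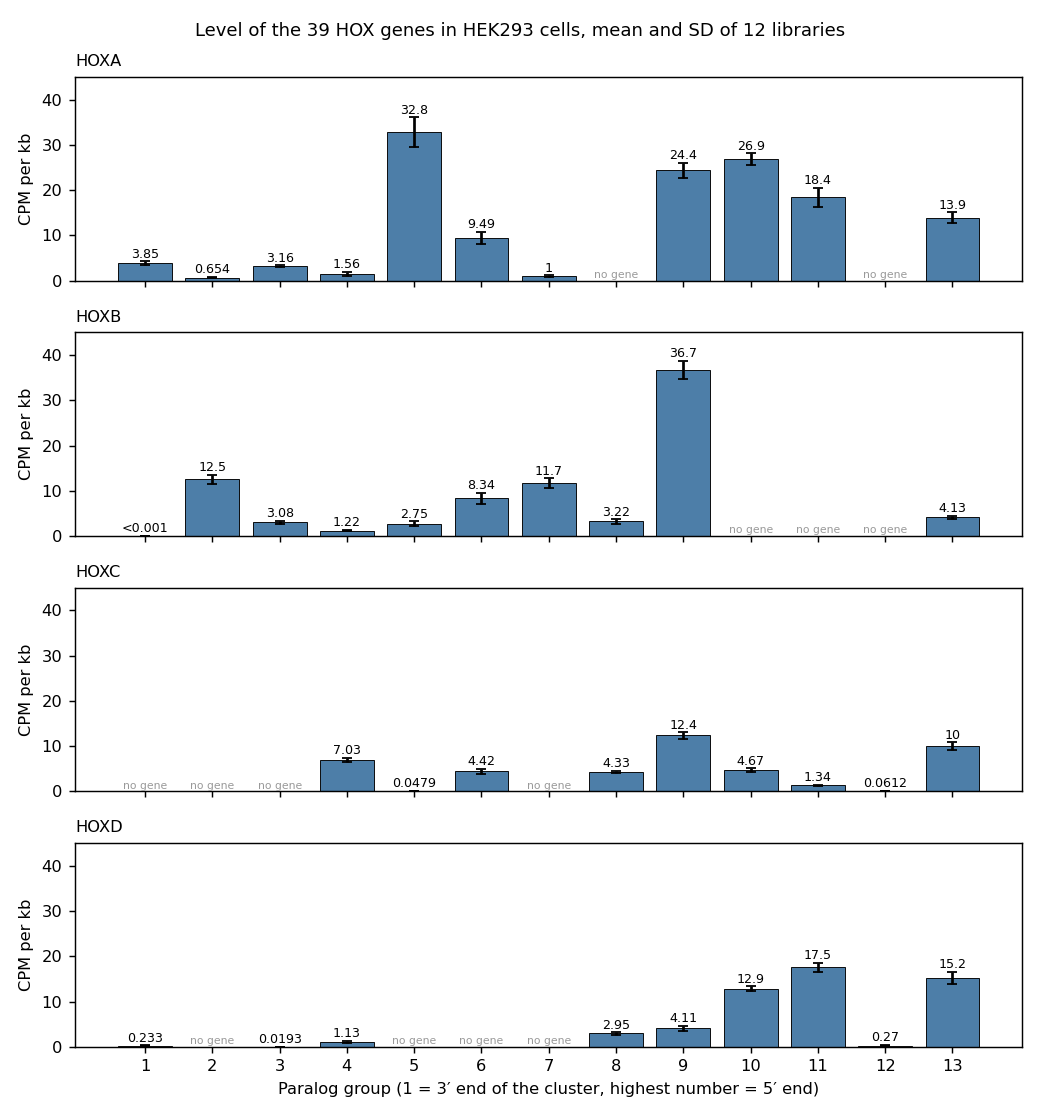
Level of each HOX gene in CPM per kb of exon (vertical axis, bars are means and error bars the SD of 12 libraries) by paralog number (horizontal axis), with 1 panel per cluster; positions with no human gene are marked. The tall bars are HOXB9 at 36.7, HOXA5 at 32.8, HOXA10 at 26.9 and HOXA9 at 24.4, and HOXD11, HOXD13 and HOXA13 stand above most members numbered 1 to 4.

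By cluster, the 11 HOXA genes (GRCh38 chr7:27092993-27200106, minus strand) held 42.7% ± 1.02 of the summed HOX level in CPM per kb (SD, n = 12). The 10 HOXB genes (chr17:48528526-48729178, minus strand) held 26.3% ± 0.839, the 9 HOXC genes (chr12:53938765-54056030, plus strand) 13.9% ± 0.552 and the 9 HOXD genes (chr2:176092891-176190907, plus strand) 17.1% ± 0.710. Cutting the clusters the other way, the 16 posterior genes, numbered 9 to 13, held 63.7% ± 0.625 of the sum. The 15 central genes, numbered 4 to 8, held 28.9% ± 0.788, and the 8 anterior genes, numbered 1 to 3, held 7.39% ± 0.450. On this scale the posterior genes thus made up most of the HOX RNA of these cells. Among the anterior genes HOXB2 was the highest, at 12.5 ± 1.07 CPM per kb.

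Exons in the clusters overlap those of antisense and neighbouring genes, and the strand setting of the counting is not given in the sources used here, so reads there cannot be assigned to 1 gene with certainty. Overlapped bases made up 80.5% of the HOXD4 exons, 62.5% of HOXA7, 47.3% of HOXA4 and 40.1% of HOXA6, but 0% of HOXA5, HOXB9 and HOXD13 and 1.69% of HOXA13. Counting length over unshared bases only moved HOXD4 to rank 17, against rank 31 over all exons, and HOXA6 to rank 7, against rank 14. All reads of a gene were divided by that shorter length, which lifts genes with few unshared bases, such as HOXD4 with 286. HOXB9 remained first by a narrow margin, at 36.7 against 36.5 for HOXA10. By CPM without length HOXA10 was first, at 99.7 against 94.8 for HOXB9.

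Among the genes that act with HOX proteins, all 9 members of the PBX, MEIS and PKNOX family were tested. PBX2 averaged 103 CPM, beside 99.7 CPM for HOXA10. The lineage markers gave a mixed picture for the label of a kidney line. SALL1, a regulator of the early kidney, averaged 31.9 CPM, 8 of 12 kidney markers were tested, and PAX8 had 1 count and CDH16 none. Of the 8 neuronal markers 4 were tested, led by NEFL at 49.1 CPM and INA at 38.4 CPM. TUBB3 averaged 1.08 CPM, NEFM and ELAVL4 were under the filter, ELAVL3 had 7 counts in all and STMN2 had 0. Of 10 leukocyte, endothelial and fibroblast markers, COL1A1 and COL3A1 alone passed the filter. In bulk RNA, fewer cells of a type and less RNA per cell cannot be told apart.

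The libraries held between 8705277 and 50943310 counts each, so the floor of 3 counts stood for 0.0595 to 0.342 CPM. The replicate that held the most, TNF replicate 2, had 4.87 times the median total of the others. TNF_SnxB replicates 2 and 3 stood apart from all other libraries: the Spearman correlation, across genes, between a gene's deviation from its mean and its transcript GC content was -0.683 and -0.682 there, against 0.134 in TNF_SnxB replicate 1 and -0.117 to 0.448 in the other 9 libraries. For the calls that involve TNF_SnxB, values after adjustment for transcript GC and length (the GC and length correction) and without both of these libraries are therefore given where they change the call or the count. NFKBIA, a direct TNFα target, averaged 271 CPM in TNF cells and 27.3 CPM in DMSO cells, and MYC averaged 18.0 CPM in SnxB cells and 91.1 CPM in DMSO cells.

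The first question was what TNFα did to the HOX genes within 2 hours. HOXA13 and HOXA11, the neighbouring genes at the 5′ end of the A cluster, fell in TNF cells relative to DMSO cells, and no member was called higher. Of the 33 tested members these 2 were called, meaning an adjusted p under 0.05, beside 2.02% of all tested genes called and 0.594% called lower.

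HOXA13 had 62.1, 65.1 and 64.0 CPM in TNF cells, against 79.1, 77.6 and 81.2 CPM in DMSO cells. Every TNF value lay below every DMSO value. Its log2 fold change was -0.31 (SE 0.05, 95% interval -0.41 to -0.21, edgeR adjusted p = 0.000189), a level of 0.807 times that in DMSO cells. HOXA11 had 38.3, 40.7 and 40.0 CPM in TNF cells, against 52.0, 49.3 and 45.1 CPM in DMSO cells, again without overlap. Its log2 fold change was -0.29 (SE 0.06, edgeR adjusted p = 0.00513). The HOXA13 call held in 22 of 22 other settings. The HOXA11 call held in 21 of 22 and was lost without DMSO replicate 1 (log2 fold change -0.24, edgeR adjusted p = 0.108), where 1 member was called. Without TNF_SnxB replicate 1, which enters this test through the shared estimate of spread, 6 members were called, beside 5.78% of all genes in that setting, and after the GC and length correction 5 were (HOXA5, HOXA9, HOXA11, HOXA13 and HOXB6), beside 3.81% of all genes.

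The annotated exons of HOXA11 share 31.1% of their bases with HOXA11-AS, its antisense transcript. HOXA11-AS averaged 24.1 CPM in TNF cells and 23.7 CPM in DMSO cells (log2 fold change 0.01, SE 0.08). HOXA13 shares 1.69% of its exon bases with HOTTIP, the long non-coding RNA transcribed away from it, which averaged 1.05 CPM in TNF cells and 1.23 CPM in DMSO cells and was not called.

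The RefSeq promoter table, build GRCh38.p14, matched 20 of the 39 members. The 250 bases before the annotated start are shown for the pair that fell with TNFα, for HOXD13, which fell in the average over both Senexin B comparisons, and for HOXB1, the member with almost no counts. HOXA13 is at chr7:27200092-27200341 (minus strand), HOXA11 at chr7:27185233-27185482 (minus strand), HOXD13 at chr2:176092471-176092720 (plus strand) and HOXB1 at chr17:48531012-48531261 (minus strand). Each is written 5′ to 3′ on the strand of its gene. Capitals mark matches to TATAAA (in HOXD13, 2 matches that overlap, one on each strand) and to TGATNNAT, a form of the joint HOX and PBX site (in HOXB1).
HOXA13: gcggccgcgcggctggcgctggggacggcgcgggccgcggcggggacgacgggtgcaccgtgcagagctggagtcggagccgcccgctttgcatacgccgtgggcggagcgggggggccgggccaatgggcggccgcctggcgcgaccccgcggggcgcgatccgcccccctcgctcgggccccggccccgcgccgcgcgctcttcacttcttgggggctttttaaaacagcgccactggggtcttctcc
HOXA11: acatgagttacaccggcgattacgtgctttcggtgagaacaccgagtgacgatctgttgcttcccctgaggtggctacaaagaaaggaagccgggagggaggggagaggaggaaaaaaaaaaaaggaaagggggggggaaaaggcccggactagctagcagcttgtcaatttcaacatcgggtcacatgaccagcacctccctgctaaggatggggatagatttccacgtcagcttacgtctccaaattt
HOXD13: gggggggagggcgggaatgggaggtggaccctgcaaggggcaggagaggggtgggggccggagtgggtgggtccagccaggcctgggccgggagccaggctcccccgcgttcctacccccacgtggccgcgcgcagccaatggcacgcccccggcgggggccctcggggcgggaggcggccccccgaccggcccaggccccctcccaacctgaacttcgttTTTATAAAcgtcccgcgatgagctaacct
HOXB1: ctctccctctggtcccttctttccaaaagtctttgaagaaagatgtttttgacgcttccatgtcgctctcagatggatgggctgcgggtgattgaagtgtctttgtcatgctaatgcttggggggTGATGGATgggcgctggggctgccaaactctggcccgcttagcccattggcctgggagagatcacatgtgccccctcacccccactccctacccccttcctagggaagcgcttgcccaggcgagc

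The windows differ in base composition. That of HOXA13 has 78.0% G and C and 40 CpG dinucleotides, and that of HOXA11 has 51.6% and 11. Over the 20 matched members the median was 20.5 CpG, beside 11 over all 35116 promoters of the table, and the median GC content was 59.0%, beside 58.0%. Both strands were searched for 3 motifs. The NF-kB consensus matched 3 of the 20 windows, those of HOXA2, HOXC4 and HOXC5, the last 2 being the same window, beside 9.96% of all promoters. Neither HOXA13 nor HOXA11 held it, nor either of the other motifs. TATAAA matched 4 windows (HOXA3, HOXA9, HOXA10 and HOXD13), beside 10.7% of all promoters, and TGATNNAT matched 3 (HOXA2, HOXB1 and HOXD11), beside 6.47%. A match is a description of these letters and not of a bound site.

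Beyond the called pair, the log2 fold change of TNF against DMSO was below 0 for 27 of 33 members, beside 51.1% of all tested genes. The median was -0.11 over the members and 0.00 over all tested genes. An unadjusted p under 0.05 with a lower value was found for 11 members, beside 5.07% of all genes, and with a higher value for 0, beside 5.36%. The TNF libraries lay wholly below the DMSO libraries for 13 members and wholly above for 0, beside 10.0% and 10.2% of all genes. The members of the A and B clusters were below 0 in 10 of 11 and 8 of 9 cases, with medians of -0.18 and -0.22, those of the C cluster in 6 of 7 (median -0.08), and those of the D cluster in 3 of 6 (median -0.02). The difference between clusters was not tested.

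Some uncalled members had estimates of similar size to the called pair on fewer counts. HOXB8, a trunk gene, had 4.98, 5.83 and 5.81 CPM in TNF cells, against 6.68, 7.19 and 7.42 CPM in DMSO cells (log2 fold change -0.32, edgeR adjusted p = 0.358). HOXB4, a gene known from blood stem cells, had 2.99, 4.68 and 4.58 CPM in TNF cells, against 5.12, 5.06 and 5.78 CPM in DMSO cells (log2 fold change -0.29, edgeR adjusted p = 0.546). In both the groups did not overlap, but at this depth the intervals reached from -0.60 to -0.05 for HOXB8 and from -0.60 to 0.03 for HOXB4. Among abundant members, HOXB9 had 91.9, 91.4 and 93.2 CPM in TNF cells, against 92.6, 102 and 91.6 CPM in DMSO cells, and its interval ran from -0.15 to 0.05. HOXA10 had 97.4, 91.5 and 97.6 CPM in TNF cells, against 105, 104 and 97.9 CPM in DMSO cells, with a log2 fold change of -0.11 (edgeR adjusted p = 0.44). HOXC9 and HOXD10, both posterior genes, had log2 fold changes of 0.07 and 0.06. The highest of the 6 values above 0 was that of HOXD9, a limb gene, with 6.87, 8.45 and 7.83 CPM in TNF cells, against 7.03, 7.19 and 6.55 CPM in DMSO cells (log2 fold change 0.21, edgeR adjusted p = 0.556), where the groups overlapped.

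**Figure D2:**
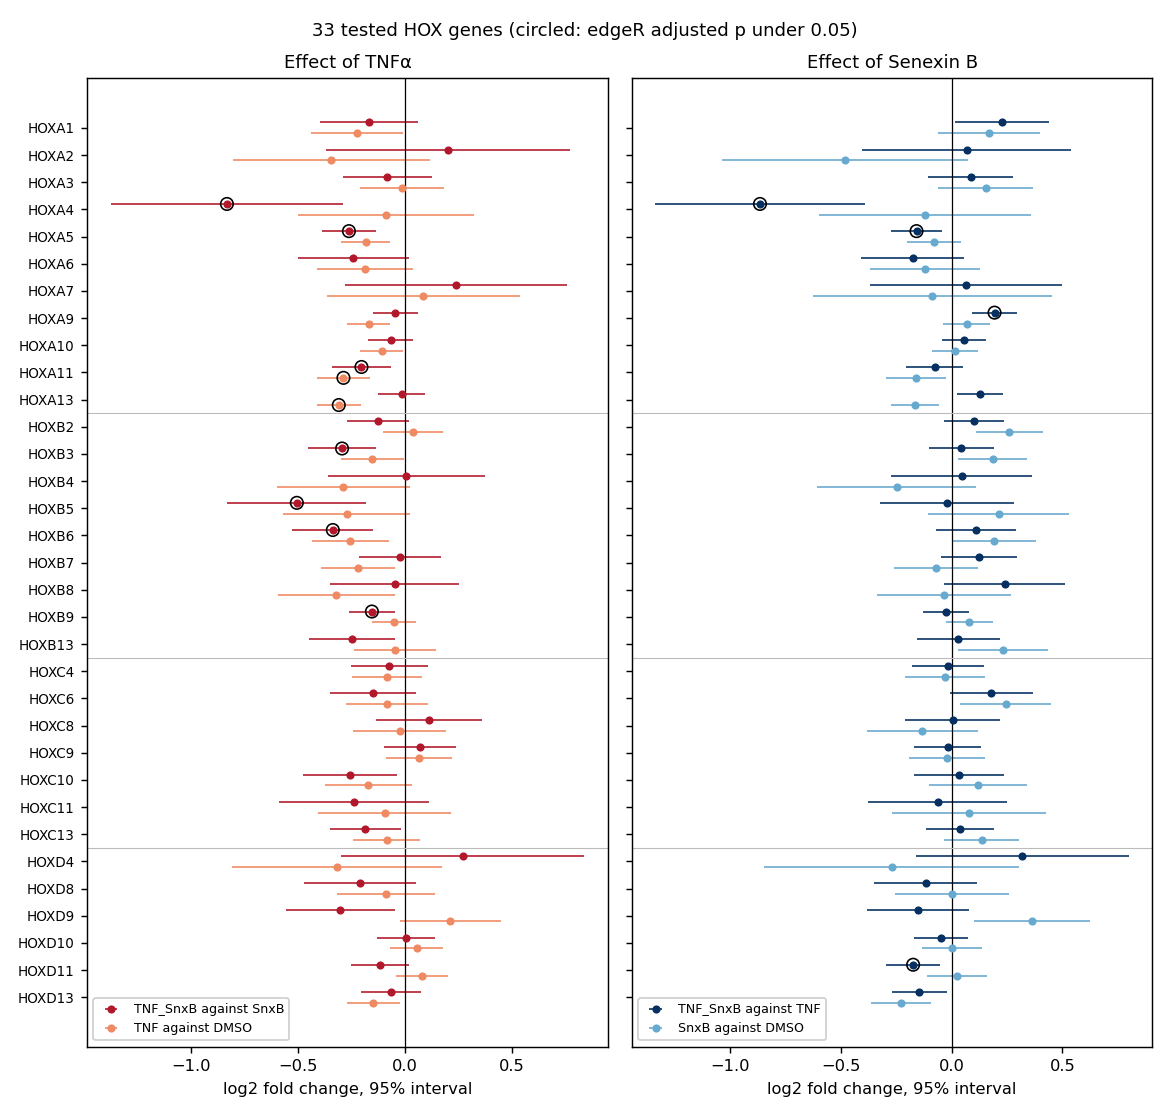
Log2 fold change (horizontal axis, dots) with its 95% interval (lines) for each of the 33 tested HOX genes; the left panel shows the TNFα effect with and without Senexin B, and the right panel the Senexin B effect with and without TNFα. Circles mark calls; in the left panel 27 of 33 values of TNF against DMSO and 26 of 33 of TNF_SnxB against SnxB lie below 0, and in the right panel HOXA4 lies farthest out, at -0.87 for TNF_SnxB against TNF.

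The same question could be asked in cells that had Senexin B. TNF_SnxB and SnxB share no library with TNF and DMSO, so the 2 comparisons are separate measurements. Of the 33 members 7 were called lower in TNF_SnxB than in SnxB and 0 higher, beside 14.2% of all tested genes called and 6.83% called lower. The called members were HOXA4, HOXA5, HOXA11, HOXB3, HOXB5, HOXB6 and HOXB9. The TNF_SnxB libraries lay wholly below the SnxB libraries for 12 members, beside 10.9% of all genes, and wholly above for 0, beside 11.8%. These counts use CPM without the GC and length correction.

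HOXA5 had 51.1, 49.5 and 46.5 CPM in TNF_SnxB cells, against 61.8, 54.5 and 59.9 CPM in SnxB cells, without overlap (log2 fold change -0.26, SE 0.06, edgeR adjusted p = 0.00644). HOXB3, a hindbrain gene, had 20.1, 21.5 and 22.6 CPM in TNF_SnxB cells, against 28.4, 25.2 and 25.7 CPM in SnxB cells (log2 fold change -0.29, SE 0.08, edgeR adjusted p = 0.0132). HOXB6, a trunk paralog, had 21.3, 18.7 and 20.6 CPM in TNF_SnxB cells, against 25.1, 24.9 and 26.2 CPM in SnxB cells (log2 fold change -0.34, SE 0.09, edgeR adjusted p = 0.0178). In each of the 3 the groups were apart. HOXB5 had 4.28, 4.39 and 5.65 CPM in TNF_SnxB cells, against 5.93, 6.92 and 7.72 CPM in SnxB cells (log2 fold change -0.51, edgeR adjusted p = 0.0341). HOXA11 had 38.9, 38.5 and 36.5 CPM in TNF_SnxB cells, against 45.7, 40.5 and 44.9 CPM in SnxB cells (log2 fold change -0.20, edgeR adjusted p = 0.0423). In HOXB5 and HOXA11, too, every TNF_SnxB library lay below every SnxB library. HOXB9 had 94.9, 86.1 and 90.9 CPM in TNF_SnxB cells, against 103, 96.4 and 103 CPM in SnxB cells (log2 fold change -0.15, edgeR adjusted p = 0.0463). HOXA4, a neck vertebra gene, had 2.09, 0.718 and 2.22 CPM in TNF_SnxB cells, against 3.30, 2.65 and 2.96 CPM in SnxB cells (log2 fold change -0.83, edgeR adjusted p = 0.0361), and without TNF_SnxB replicate 2 the log2 fold change was -0.45 (edgeR adjusted p = 0.312). For HOXA11 and HOXB9 the gaps between the groups were narrow, and their calls were lost in 14 and 16 of 22 other settings.

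HOXA5 and HOXB3 remained called with the GC and length correction, beside 4.92% of all genes (edgeR adjusted p = 0.000956 and 0.0385), and the other 5 did not. Without TNF_SnxB replicates 2 and 3, none of the 7 was called, with 1 TNF_SnxB library left that is assumed to vary like the other groups. Their log2 fold changes were then between -0.68 (HOXB5) and -0.08 (HOXB9), all still below 0. The count of called members was 1 without SnxB replicate 1 or TNF_SnxB replicate 2, 2 without SnxB replicate 3, 3 without TNF_SnxB replicate 3 and 4 without SnxB replicate 2.

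Both comparisons gave a log2 fold change below 0 for 23 of the 33 members. There were 26 below 0 in TNF_SnxB against SnxB (50.7% of all genes) and 27 in TNF against DMSO. With most members below 0 in each comparison, a large shared number follows from these counts alone. After the GC and length correction the shared number was 20, with 23 below 0 in TNF_SnxB against SnxB and 27 in TNF against DMSO. The member median in TNF_SnxB against SnxB was -0.12 before the correction and -0.07 after it. Over tested genes with a GC value, the uncorrected log2 fold change of TNF_SnxB against SnxB had a Spearman correlation of -0.63 with transcript GC content. The sizes did not follow each other from gene to gene: Pearson's r over the 33 members was -0.03. Averaged over Senexin B, the TNFα effect was below 0 in 29 of 33 members, beside 51.7% of all tested genes, and 6 members were called, all lower, beside 5.29% of all genes called and 2.16% called lower. These were HOXA11 (log2 fold change -0.24), HOXA5 (-0.22), HOXB6 (-0.30), HOXA13 (-0.16), HOXB3 (-0.22) and HOXB5 (-0.39), with edgeR adjusted p from 0.000556 for HOXA11 to 0.028 for HOXB5. The first 5 were called in 21 of 21 other settings and HOXB5 in 14. The HOXA13 average came from the cells without Senexin B, with a log2 fold change of -0.31 in TNF against DMSO. With Senexin B, HOXA13 averaged 69.7 CPM in TNF_SnxB cells and 70.7 CPM in SnxB cells. The number of members called was 5 to 7 when any 1 library was left out, except that it was 13 without TNF_SnxB replicate 1, where 22.7% of all genes were called. It was 7 after the GC and length correction, beside 7.02% of all genes, and 8 without TNF_SnxB replicates 2 and 3, beside 4.39%, all lower in both settings.

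The values behind 2 of these averages differed in how far the groups overlapped. HOXA5 had 56.1, 55.3 and 51.9 CPM in TNF cells, against 62.4, 63.8 and 59.7 CPM in DMSO cells, so TNFα libraries lay below their counterparts both with and without Senexin B. HOXB6 had 20.0, 18.2 and 18.6 CPM in TNF cells, against 24.6, 24.0 and 18.3 CPM in DMSO cells, where DMSO replicate 3 sat within the TNF range. Summed over all 39 members, HOX RNA came to 799 ± 4.79 CPM in TNF_SnxB cells and 791 ± 4.19 CPM in TNF cells, against 869 ± 2.92 CPM in SnxB cells and 861 ± 20.5 CPM in DMSO cells (SD, n = 3 each). The sum was lower in both groups with TNFα than in either group without it, with no test of the sum.

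**Figure D3:**
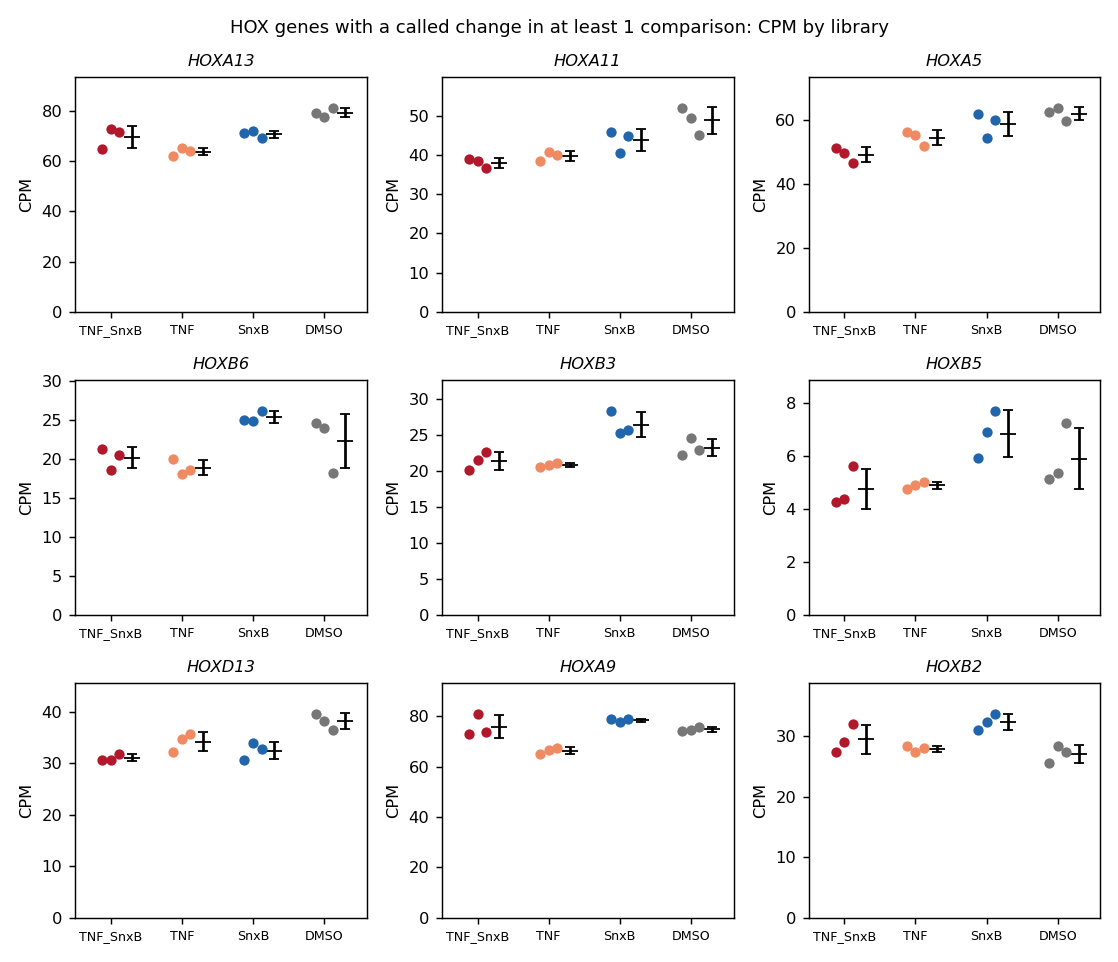
CPM of 9 HOX genes (vertical axes, starting at 0) in each library (dots) by group, with the mean and SD of 3 libraries beside them. HOXA13, HOXA11 and HOXA5 lie highest in DMSO cells, at means of 79.3, 48.8 and 61.9 CPM, while HOXA9 and HOXB2 lie highest in SnxB cells, at means of 78.3 and 32.4 CPM.

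The next question was what Senexin B did. In cells without TNFα no HOX gene passed the test, and the 3 nearest to it were HOXB2, above DMSO, and HOXD13 and HOXA13, below it. In that comparison 0 of 33 members were called by edgeR and 0 by DESeq2, beside 2.03% of all tested genes called by edgeR. At an unadjusted p under 0.05 there were 9 members, 3 lower and 6 higher, beside 12.1% of all genes. The SnxB libraries lay wholly below the DMSO libraries for 3 members and wholly above for 8, beside 10.9% and 9.49% of all genes, and the median log2 fold change was 0.00. By cluster the medians were -0.09 in A, 0.18 in B, 0.08 in C and 0.00 in D.

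The smallest p belonged to HOXB2, a hindbrain gene, with 31.1, 32.3 and 33.7 CPM in SnxB cells, against 25.5, 28.3 and 27.4 CPM in DMSO cells (log2 fold change 0.26, SE 0.07, edgeR adjusted p = 0.0596). HOXD13 had 30.7, 33.9 and 32.8 CPM in SnxB cells, against 39.7, 38.2 and 36.6 CPM in DMSO cells (log2 fold change -0.23, SE 0.07, edgeR adjusted p = 0.0755). HOXA13 had 71.0, 71.8 and 69.2 CPM in SnxB cells, against 79.1, 77.6 and 81.2 CPM in DMSO cells (log2 fold change -0.17, SE 0.05, edgeR adjusted p = 0.118). In all 3 genes the groups did not overlap, and the GC and length correction made calls of these 3 members and no other, beside 4.69% of all genes (edgeR adjusted p = 0.0206 for HOXB2, 0.0271 for HOXD13 and 0.0111 for HOXA13). HOXD9 had 7.86, 9.00 and 9.73 CPM in SnxB cells, against 7.03, 7.19 and 6.55 CPM in DMSO cells (log2 fold change 0.36, edgeR adjusted p = 0.184). HOXC6, a trunk gene, had 17.5, 18.8 and 16.7 CPM in SnxB cells, against 13.9, 16.0 and 15.1 CPM in DMSO cells (log2 fold change 0.24, edgeR adjusted p = 0.302). HOXB13, a prostate and hindgut gene, had 15.2, 16.4 and 16.7 CPM in SnxB cells, against 14.1, 14.3 and 12.9 CPM in DMSO cells (log2 fold change 0.23, edgeR adjusted p = 0.331). These 3 were also apart from DMSO in every library, each by less than 1 CPM. Called members numbered 3 without TNF_SnxB replicate 1 (HOXD13, HOXA13 and HOXB2), beside 5.82% of all genes in that setting, and 1 without TNF_SnxB replicate 3 (HOXB2).

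In cells with TNFα, 4 members were called between TNF_SnxB and TNF, 3 lower and 1 higher, beside 27.2% of all tested genes called. HOXA9 had 73.0, 81.0 and 73.6 CPM in TNF_SnxB cells, against 64.9, 66.7 and 67.4 CPM in TNF cells, without overlap (log2 fold change 0.19, SE 0.05, edgeR adjusted p = 0.00482). HOXA4 had 2.09, 0.718 and 2.22 CPM in TNF_SnxB cells, against 3.21, 3.02 and 2.90 CPM in TNF cells (log2 fold change -0.87, SE 0.23, edgeR adjusted p = 0.00673). The lowest of these, TNF_SnxB replicate 2, rested on 9 counts, beside 19 and 31 counts in the other TNF_SnxB libraries, and without it the log2 fold change was -0.48 (edgeR adjusted p = 0.121). HOXA5 fell in TNF_SnxB relative to TNF, with a log2 fold change of -0.16 (edgeR adjusted p = 0.0389) and no overlap. HOXD11, a kidney paralog, had 37.2, 33.4 and 33.6 CPM in TNF_SnxB cells, against 40.0, 39.4 and 37.2 CPM in TNF cells, where the top TNF_SnxB value met the lowest TNF value to the digits shown (log2 fold change -0.17, edgeR adjusted p = 0.0306).

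The HOXD11 call did not hold under the GC and length correction. With 65.4% G and C, HOXD11 has the highest GC content of the 33 tested members, and after the GC and length correction its log2 fold change was 0.08 (edgeR adjusted p = 0.372). HOXD11 in TNF_SnxB replicates 2 and 3 lay below the other libraries, and in replicate 1 at the level of the SnxB libraries. Across 13419 tested genes, the log2 fold change of TNF_SnxB against TNF had a Spearman correlation of -0.71 with transcript GC content before correction. This value describes all tested genes with a GC value, which share these libraries, and not the 33 members alone. After correction 7 members were called, 2 lower (HOXA4 and HOXA5) and 5 higher (HOXA9, HOXA10, HOXB2, HOXB6 and HOXB8), beside 11.9% of all genes. Without TNF_SnxB replicates 2 and 3, 0 members were called by edgeR. The count was also 0 without TNF_SnxB replicate 2, and 2 without TNF_SnxB replicate 3, TNF replicate 1 or TNF replicate 2. HOXA9 without TNF_SnxB replicate 2 had a log2 fold change of 0.14 (edgeR adjusted p = 0.0698).

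**Figure D4:**
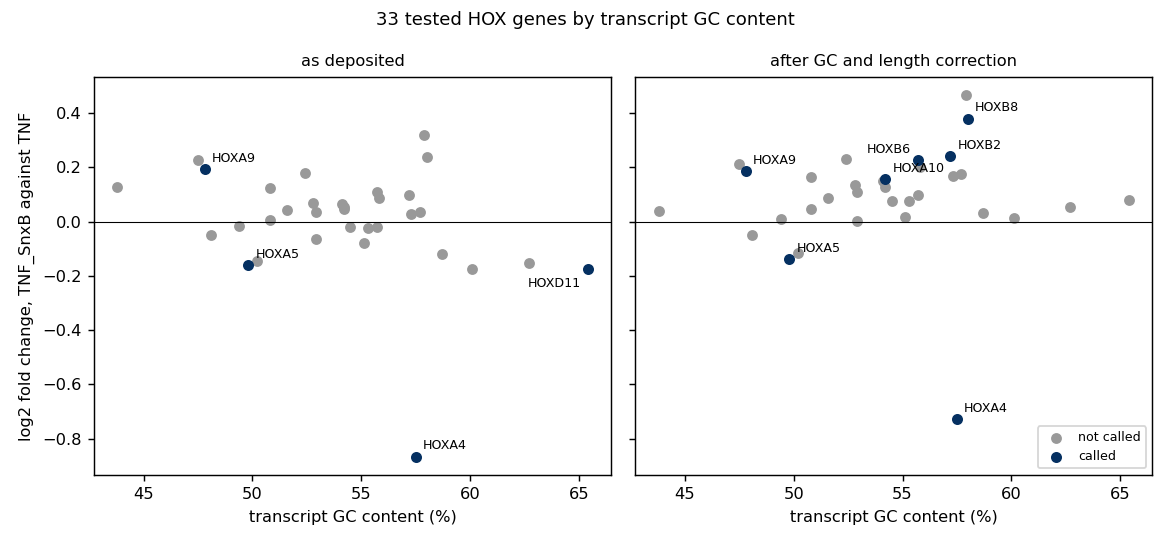
Log2 fold change of TNF_SnxB against TNF (vertical axis) by the GC content of each of the 33 tested HOX genes' transcripts in percent (horizontal axis), as deposited on the left and after the GC and length correction on the right, with called genes in dark blue and named. HOXD11, at 65.4% GC, is at -0.17 on the left and 0.08 on the right, while HOXA4 and HOXA5 lie below 0 and HOXA9 above 0 in both.

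Averaged over TNFα, 6 members were called for Senexin B, 3 lower and 3 higher, beside 15.6% of all tested genes. HOXD13 fell (log2 fold change -0.19, SE 0.05, edgeR adjusted p = 0.00517), with 30.7, 30.7 and 31.8 CPM in TNF_SnxB cells, against 32.1, 34.8 and 35.7 CPM in TNF cells. Its call held in 21 of 21 other settings. HOXA4 fell (-0.49, edgeR adjusted p = 0.0415) and HOXA5 fell (-0.12, edgeR adjusted p = 0.0481), but these held in 8 and 10 of 21 settings. HOXB2 (0.18, edgeR adjusted p = 0.0126), HOXA9 (0.13, edgeR adjusted p = 0.0129) and HOXC6 (0.21, edgeR adjusted p = 0.0347) rose, in 17, 18 and 13 of 21 settings. HOXC6 had 18.5, 14.6 and 15.4 CPM in TNF_SnxB cells, against 12.6, 14.6 and 14.3 CPM in TNF cells, so that the lowest TNF_SnxB and the highest TNF value met to the digits shown. The number of members called was 2 without DMSO replicate 1, and 3 without SnxB replicate 2, TNF replicate 1, TNF replicate 2 or TNF_SnxB replicate 2. It was 9 after the GC and length correction, 2 lower and 7 higher, beside 14.1% of all genes, and 3 without TNF_SnxB replicates 2 and 3 (HOXD13, HOXC13 and HOXC6), beside 7.76%.

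Whether Senexin B altered the TNFα effect was tested as an interaction, the TNFα effect with Senexin B minus that without. HOXA13 was the 1 member called, beside 2.50% of all tested genes. It had 64.6, 72.7 and 71.6 CPM in TNF_SnxB cells, against 71.0, 71.8 and 69.2 CPM in SnxB cells, so the groups overlapped (log2 fold change -0.01, 95% interval -0.12 to 0.10), unlike TNF against DMSO. The interaction was 0.29 (SE 0.07, edgeR adjusted p = 0.0371). After the GC and length correction it was 0.21 (edgeR adjusted p = 0.114), and without TNF_SnxB replicates 2 and 3 it was 0.17 (edgeR adjusted p = 0.681). Leaving out any library except DMSO replicate 2 and TNF_SnxB replicate 1 also ended the call, with edgeR adjusted p from 0.0741 to 0.135. Without TNF_SnxB replicate 1, 4 members were called (HOXA4, HOXA13, HOXD9 and HOXD11), beside 30.0% of all genes in that setting. HOXA13 has the lowest transcript GC content of the tested members, 43.8%, and the part of the composition of these 2 libraries in its value was not tested beyond these fits.

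Regulators and relatives of the HOX genes were read from the same fit. Of 15 Trithorax and MLL complex genes tested, 2 rose and 0 fell in TNF against DMSO, beside 2.02% of all tested genes called. KMT2A, the methyltransferase that keeps HOX genes active, rose by 0.29 on the log2 scale (SE 0.05, edgeR adjusted p = 0.000249), and KMT2D, a related methyltransferase that acts at enhancers, rose by 0.23 (edgeR adjusted p = 0.00407). KMT2A was also higher in TNF_SnxB than in SnxB (log2 fold change 0.30, edgeR adjusted p = 0.000221), and at 0.27 after the GC and length correction and 0.27 without TNF_SnxB replicates 2 and 3 it was still called. Of 30 Polycomb genes tested, 2 fell and 0 rose in TNF against DMSO, beside 0.594% of all tested genes called lower. The 2 were the chromatin-binding subunit CBX8 (-0.32, edgeR adjusted p = 0.013) and the accessory subunit JARID2 (-0.22, edgeR adjusted p = 0.0368). In SnxB against DMSO the enzyme gene EZH1 rose (0.35, edgeR adjusted p = 0.00862) and RBBP7, a histone-binding subunit, fell (-0.15, edgeR adjusted p = 0.0108). There 0 of the 15 Trithorax genes was called by edgeR, with 3 at an unadjusted p under 0.05. Over all tested genes 2.03% were called in that comparison.

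Of the 9 HOX partner genes, edgeR called 0 in TNF against DMSO and 0 in SnxB against DMSO. At an unadjusted p under 0.05 there were 2 and 0. After the GC and length correction 1 partner gene was called lower in TNF against DMSO, beside 3.81% of all genes called. PBX3 fell in the TNFα average (-0.20, edgeR adjusted p = 0.00929), with -0.22 both after the GC and length correction and without TNF_SnxB replicates 2 and 3, called each time. Of the 11 ParaHox and flanking homeobox genes 5 were tested, and CDX2, an activator of HOX genes in the trunk, fell in the TNFα average (-0.31, edgeR adjusted p = 0.019) and in the Senexin B average (-0.29, edgeR adjusted p = 0.0134), with means of 7.93 CPM in TNF_SnxB cells, 10.8 CPM in TNF cells, 10.8 CPM in SnxB cells and 11.8 CPM in DMSO cells. Both CDX2 calls held after the GC and length correction (-0.27 and -0.24, edgeR adjusted p = 0.0201 and 0.028) and were lost without TNF_SnxB replicates 2 and 3 (-0.16 and -0.14, edgeR adjusted p = 0.48 and 0.496). In TNF_SnxB against SnxB, 2 of these 5 genes were called lower, beside 6.83% of all tested genes, and 0 after the correction. MNX1, a motor neuron and pancreas gene, fell in the TNFα average (-0.25, edgeR adjusted p = 0.017), a call lost after the GC and length correction (edgeR adjusted p = 0.111). Of 14 retinoic acid pathway genes tested, 0 was called in TNF against DMSO or SnxB against DMSO by edgeR, with 0 and 2 at an unadjusted p under 0.05. In the Senexin B average the receptor gene RARA fell (-0.28, edgeR adjusted p = 0.00046) and RARB rose (0.41, edgeR adjusted p = 0.0182). Both calls held after the GC and length correction, and without TNF_SnxB replicates 2 and 3 that of RARA held (-0.20, edgeR adjusted p = 0.0293) and that of RARB was lost (0.23, edgeR adjusted p = 0.489). Of the 11 tested CTCF and cohesin genes, which shape the folding of the clusters, edgeR called 0 in TNF against DMSO or SnxB against DMSO. At an unadjusted p under 0.05 there were 0 and 2. After the GC and length correction 1 was called lower in SnxB against DMSO, beside 4.69% of all genes called. In TNF_SnxB against TNF 7 of the 11 were called higher and 2 lower (median 0.15), beside 27.2% of all tested genes called. After the GC and length correction 1 was called higher and 1 lower (median 0.01), beside 11.9% of all genes. In TNF_SnxB against SnxB 4 were called higher, beside 14.2% of all tested genes called, and 0 after the correction, beside 4.92%. NIPBL, which loads cohesin, rose in the Senexin B average (0.21, edgeR adjusted p = 8.72e-05) and SMC1A, a cohesin ring subunit, fell (-0.09, edgeR adjusted p = 0.00381), and both calls held after the GC and length correction, at 0.12 and -0.12, and without TNF_SnxB replicates 2 and 3, at 0.15 and -0.07.

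Of the 24 non-coding genes of the clusters that were measured, 15 were tested, and 0 was called by edgeR in TNF against DMSO or in SnxB against DMSO, with 2 and 3 at an unadjusted p under 0.05. HOXD-AS2 was called in TNF_SnxB against SnxB (log2 fold change -0.46, edgeR adjusted p = 0.0461) and was not called after the GC and length correction (-0.25) or without TNF_SnxB replicates 2 and 3 (-0.26). HOTAIR, in the C cluster, averaged 8.61 CPM in TNF cells and 10.9 CPM in DMSO cells (log2 fold change -0.33, edgeR adjusted p = 0.155). HOXA11-AS and HOTAIRM1 were the most abundant, at 23.0 and 16.7 CPM over the 12 libraries.

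Some markers of kidney lineage also fell in the TNFα average. Of the 8 tested, 0 was called by edgeR in TNF against DMSO, with 2 at an unadjusted p under 0.05. In TNF_SnxB against SnxB 3 were called lower, beside 6.83% of all tested genes, against 2 after the GC and length correction. In the average 4 were called lower and 0 higher, also after the GC and length correction, beside 2.16% and 3.13% of all tested genes, among them GATA3 (-0.28, edgeR adjusted p = 0.000948), SIX2 (-0.37, edgeR adjusted p = 0.00853) and EYA1 (-0.41, edgeR adjusted p = 0.0292). Without TNF_SnxB replicates 2 and 3 the EYA1 call was lost (-0.31, edgeR adjusted p = 0.237). The summed CPM of the 12 kidney markers ran from 119 to 124 in TNF_SnxB libraries and from 125 to 128 in TNF libraries, against 130 to 135 in SnxB libraries and 130 to 139 in DMSO libraries, with CDH16 at 0 and PAX8 at 1 count in all. Of the 4 neuronal markers tested, NEFL fell in the Senexin B average (-0.39, edgeR adjusted p = 4.64e-08), and the summed CPM of the 8 neuronal markers ran from 89.0 to 94.8 in TNF_SnxB libraries, 106 to 115 in TNF libraries, 95.1 to 105 in SnxB libraries and 115 to 120 in DMSO libraries. The summed CPM of the leukocyte, endothelial and fibroblast markers ran from 14.9 to 17.1 in TNF_SnxB libraries and 16.5 to 17.1 in TNF libraries, against 17.8 to 19.8 in SnxB libraries and 16.4 to 17.5 in DMSO libraries, with CD3E and CDH5 at 0. The part of any of these in the HOX values was not tested.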

How the data were processed

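The authors deposited whole-number read counts per gene symbol for 12 libraries. Per the labels' protocols, RNA was extracted with an RNeasy kit and sequenced from Illumina TruSeq libraries of 3 biological replicates per group. The submitters' processing notes name STAR 2.4, SAMtools 1.2, featureCounts and Subread 1.4.6 and the hg38 build. Neither source names the annotation or strand setting used for counting.

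From those counts, edgeR 4.0.16 (R 4.3.3) fitted 4 group means over all 12 libraries by quasi-likelihood, after its low-count filter and TMM scaling, which left 14822 genes, and p-values were adjusted by Benjamini-Hochberg over all of them. A call is an adjusted p under 0.05. Fold changes are TNF over DMSO and so on as named. The averages are the mean of the effects with and without the other agent. CPM use TMM-scaled totals, and per-kb levels use exon unions of GENCODE v29. The correction used loess offsets (span 0.3) on GC content and length of the longest transcript, with values for 13419 tested genes (90.5%). The biological coefficient of variation was 3.49%. The fit was tested on simulated data.

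Alternatives were DESeq2 1.42.0, other scalings and filters, the replicate block, only the groups compared, thinning of TNF replicate 2, and leaving out each library. No 2 replicates were identical copies: chi-square per degree of freedom was at least 1.07. Counting error alone gives a value near 1, so this check cannot exclude repeat libraries of the same RNA. Members and gene lists were chosen with earlier results of these data known. Genes named are those called in any of the 7 contrasts, the 2 highest by CPM in each cluster, the smallest p in each contrast, and up to 4 whose groups did not overlap in TNF against DMSO and in SnxB against DMSO; other genes named are from fixed lists.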

Additional observations from a re-analysis of the deposited data

Results flagged for a closer look

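HOXA13 stood out because the TNFα effect with Senexin B minus that without it was tested and was called: the difference was 0.29 on the log2 scale (edgeR adjusted p = 0.0371). After the GC and length correction 0 of the 33 tested members were called for this difference. Without the correction HOXA13 was the 1 member called, beside 2.50% of all tested genes. It was called in 8 of 21 other settings, with values from 0.17 to 0.33 and edgeR adjusted p from 1.52e-05 to 0.681.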

How the results depend on the processing

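The number of HOX genes called was 2 in TNF against DMSO, 0 in SnxB against DMSO, 4 in TNF_SnxB against TNF, 7 in TNF_SnxB against SnxB, 1 in the interaction, 6 in the TNFα average and 6 in the Senexin B average. With the GC and length correction it was, in the first 5 of these, 5, 3, 7, 2 and 0. The share of all genes called with that correction was 3.81%, 4.69%, 11.9% and 4.92% in the first 4. With only the groups compared, the first 4 gave 5, 3, 2 and 2. DESeq2 gave 1 in TNF_SnxB against TNF, 3 in TNF_SnxB against SnxB and 3 in the Senexin B average. Without both TNF_SnxB libraries 2 and 3, the first 5 gave 6, 3, 0, 0 and 0, and the Senexin B average 3. Leaving out 1 library gave 1 to 6, 0 to 3, 0 to 6, 1 to 8, 0 to 4, 5 to 13 and 2 to 8 over the 7 contrasts in that order. The share of all genes called also moved with the setting. Without TNF_SnxB replicate 1 it was 5.78% in TNF against DMSO, 5.82% in SnxB against DMSO, 30.0% in the interaction and 22.7% in the TNFα average. Where a setting's share is given neither here nor above, its count of HOX genes has no background beside it. The cause of these differences was not tested.

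Same-numbered libraries did not deviate together (r from -0.0402 to 0.0941 over 18 pairs), so the numbers are not taken to pair them. The replicate block left the counts at 2, 0, 4, 7, 1, 6 and 6. The replicate block with the GC and length correction gave 7, 3, 7, 2 and 0 in the first 5 contrasts and 10 in the Senexin B average. HOXD11 in TNF_SnxB against TNF reversed, to 0.0794 with the GC and length correction and to 0.0891 with the block added. Of 581 other values over 27 pairs of gene and contrast, 431 kept direction and call, 142 lost the call, 6 gained it and 2 reversed.

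By CPM, not per kb, the HOXA, HOXC and HOXD shares were 46.4%, 12.5% and 14.9%. Per kb of unshared exonic bases, a setting chosen after seeing the data, HOXA, HOXB and HOXC held 45.8%, 23.5% and 13.0%. For members of a few CPM, such as HOXB4, depth limits what could be detected, and counting intervals cover counting error only.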
